A study of Mus musculus with 4 samples.

Results

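The TOM and TIM genes encode the subunits of the protein import machinery of mitochondria. Here they are the protein-coding mouse genes whose GENCODE symbol starts with Tomm or Timm and goes on with a digit. The rule found 25 of the 50600 genes in the files, and it used names only, no measured value. Of the 25 genes, 23 reached at least 1 TPM in every library (a transcript level: counts divided by exonic length and scaled to a fixed total per library). That floor was reached by 45.2% of all nuclear protein-coding genes. The other two genes, Tomm20l and Timm8a2, gave hardly any reads.

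Expression was measured by RNA-seq in 4 libraries of primary T cells from C57BL/6NJ mice, which form 1 group with replicate numbers 1 to 4. In the headers of the count tables the cells are Th0 cells after 16 h of activation, and Th0 commonly stands for helper T cells stimulated with no lineage-directing cytokine. No group differs in treatment, genotype or time, so genes are compared with each other within libraries, and libraries with each other. The 4 biosamples carry a shared donor identifier, age and sex are not given, and nothing says that they came from separate animals, so p-values measure only the spread between these samples, which may be technical. The assay is labelled total RNA-seq, while the linked library protocol is named for polyA+ RNA and the linked culture protocol for CD4+ T cells. All 6 T cell markers examined were detected, from 132 TPM for Cd3g to 1880 TPM for Trac, and summed to between 3580 and 3690 TPM per library. None of 12 markers of other cell types reached 1 TPM in every library, their sum was between 2.52 and 8.33 TPM per library, and S100a8 and Hba-a1 had no count.

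Nearly all mitochondrial proteins are encoded in the nucleus, made in the cytosol and brought in through the TOM complex, the gate of the outer membrane. From there, proteins with a cleavable presequence pass through the TIM23 complex of the inner membrane and are pulled into the matrix by an Hsp70 motor, carrier proteins are escorted by small TIM chaperones of the intermembrane space to the TIM22 complex, and other proteins are sorted by further machines. T cells enlarge and remodel their mitochondria during activation, which calls for import of many proteins. Messenger RNA levels, which are what was measured, need not match the amounts of these proteins.

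The TOM and TIM genes spanned a wide range of levels in these T cells, from Tomm22 with a mean of 405 TPM to Tomm20l with no read. Means of at least 100 TPM were reached by 12 of the 25 genes, against 9.07% of all nuclear protein-coding genes. The median of the 23 detected members was 116 TPM, beside 32.7 TPM over 9840 detected nuclear protein-coding genes. Together the 25 genes took 0.227%, 0.232%, 0.224% and 0.213% of the counts in replicates 1 to 4, in which they summed to 3494, 3567, 3464 and 3292 TPM. When the genes were ordered by mean TPM, the ranges over the 4 libraries overlapped in 11 of the 24 pairs of neighbours, so much of the order between neighbours is within the spread of the libraries.

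**Figure D1:**
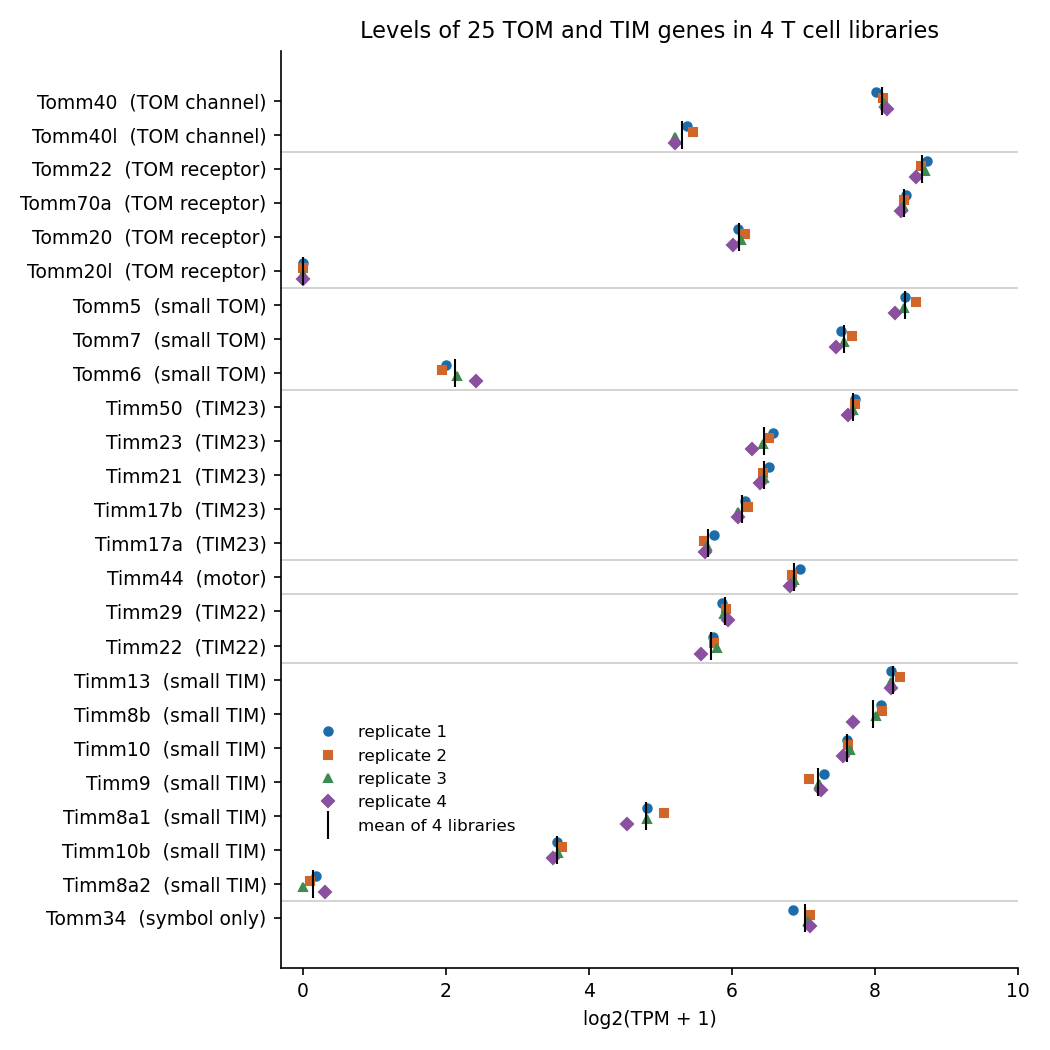
Levels of the 25 genes, grouped by complex, with log2(TPM + 1) on the horizontal axis, one symbol per library and a vertical bar for the mean of the 4 libraries. Tomm22, Tomm5 and Tomm70a lie farthest to the right, Tomm6 lies far below the other small TOM genes, and Tomm20l and Timm8a2 lie near 0.

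In the outer membrane, the channel gene Tomm40 was high and its paralogue Tomm40l low. Tomm40 (chr7:19701313-19715438, minus strand, mm10) encodes the beta-barrel through which precursors cross. Its levels were 259, 276, 278 and 287 TPM in replicates 1 to 4, a mean of 275 ± 11.8 TPM (SD, n = 4), higher than 93.7% of detected nuclear protein-coding genes. Tomm40l (chr1:171216011-171222514, minus strand) encodes a second, closely related barrel protein and gave 40.4, 42.9, 35.9 and 36.0 TPM. No library of Tomm40l came near any library of Tomm40. Within libraries Tomm40 was between 6.41- and 7.96-fold higher than Tomm40l, a difference of 2.80 ± 0.17 in log2(TPM + 1). With the longest coding transcript as the length, the difference was 4.12, at 542 against 30.4 TPM. Tomm40 made up 87.6 ± 1.27% (SD, n = 4) of the summed TPM of the pair. Of the 5135 exonic bases of Tomm40l, 3304 lie opposite exons of Nr1i3, a nuclear receptor gene on the other strand, which had 1, 0, 0 and 0 counts in these strand-specific data.

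The receptors that recognise incoming precursors differed among themselves. Tomm22, the central receptor that also holds the complex together, was the highest of all 25 genes with 426, 399.5, 414 and 382 TPM, a mean of 405 ± 19.1 TPM (SD, n = 4). Tomm70a, the receptor for carrier precursors and their cytosolic chaperones, followed with 346, 340.4, 334 and 329 TPM, a mean of 337 ± 7.05 TPM (SD, n = 4). Every library of Tomm22 lay above every library of Tomm70a. Tomm20, the receptor for presequences, was lower, with 67.1, 72.0, 69.0 and 64.0 TPM, a mean of 68.0 ± 3.32 TPM (SD, n = 4). Within libraries its level was 0.202 times that of Tomm70a, and it was lower in 4 of 4 libraries. Tomm20l, a paralogue of Tomm20, had no count in any library. With the limit that a count of 0 allows, 3 counts per library, its level could be at most 0.312, 0.340, 0.267 and 0.375 TPM in replicates 1 to 4, so Tomm20 was at least 171- to 258-fold higher within libraries. These limits cover counting error only. Processed pseudogenes elsewhere resemble parts of 2 receptor genes: Gm14494 matches Tomm20 at 99.5% identity over 435 of 4902 transcript bases, and Gm12906 matches Tomm22 at 98.1% over 314 bases, so a part of their reads may be uncounted or shared.

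The sequences just before the start sites of these 4 receptor genes are shown because the silent Tomm20l can there be set beside its expressed paralogue and the highest expressed receptors. Each is the part of the 150 bases before the start in RefSeq (GRCm38.p6) that lies outside the gene as counted in the files, 5′ to 3′ on the gene's own strand, with matches to the searched motifs in capitals. In Tomm22 (chr15:79670718-79670860, plus strand) and Tomm70a (chr16:57121564-57121713, plus strand) the capitals mark the letters CCGGAAG or their reverse complement, which bind ETS factors in general. In Tomm20 (chr8:126945922-126946071, minus strand) and Tomm20l (chr12:71111278-71111427, plus strand) they mark the E-box CACGTG.
Tomm22: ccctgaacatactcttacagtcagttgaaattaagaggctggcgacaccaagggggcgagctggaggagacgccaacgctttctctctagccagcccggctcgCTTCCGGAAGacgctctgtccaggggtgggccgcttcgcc
Tomm70a: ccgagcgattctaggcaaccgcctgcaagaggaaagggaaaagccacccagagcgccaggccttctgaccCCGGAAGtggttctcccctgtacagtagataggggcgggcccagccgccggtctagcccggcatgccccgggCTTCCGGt
Tomm20: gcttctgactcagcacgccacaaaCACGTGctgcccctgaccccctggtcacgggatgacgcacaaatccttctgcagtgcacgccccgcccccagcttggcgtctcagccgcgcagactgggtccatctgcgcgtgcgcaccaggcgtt
Tomm20l: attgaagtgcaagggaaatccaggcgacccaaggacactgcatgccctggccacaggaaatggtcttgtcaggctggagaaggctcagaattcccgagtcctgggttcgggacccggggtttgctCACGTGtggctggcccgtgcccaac
The match in Tomm22 reads as the ETS site on both strands at once, and Tomm70a holds a match on each strand. Tomm20, at a moderate level, and Tomm20l, with no read, both hold the E-box. Their 300-base windows (250 bases before and 50 after the start) hold 24 and 13 CpG, respectively.

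The small TOM subunits, which support assembly and stability of the channel, were listed at very different levels, of which that of Tomm6 is uncertain. Tomm5 had 343, 381, 338 and 311 TPM, a mean of 343 ± 28.7 TPM (SD, n = 4), with replicate 2 highest and replicate 4 lowest. Tomm7 had 184, 204, 189.7 and 176 TPM, a mean of 188 ± 12.2 TPM (SD, n = 4), with the same libraries at the ends. Tomm6 was listed far lower, at 3.02, 2.87, 3.47 and 4.35 TPM from 55, 48, 74 and 66 counts. The counting of Tomm6 limits this value: 859 of its 1131 exonic bases (76.0%) are shared on the same strand with exons of Gm21981, a gene with 5, 0, 10 and 1 counts, and the file headers record no option to count reads that fall on 2 genes. Over the 272 bases that are its own, the Tomm6 counts would give 12.5, 11.9, 14.4 and 18.1 TPM. These values lie below every library of Tomm5 and Tomm7, but the division does not make up for uncounted reads. Of the 749 bases of a Tomm6 transcript, 656 match Gm21981, and pairs that touch both genes may be lost. Whether Tomm6 is low in these cells therefore cannot be told from these counts. What share of Tomm6 reads was left uncounted was not tested. Tomm5 has a pseudogene copy, Gm8069, of 98.7% identity over 154 bases. Tomm34 carries the TOM symbol but encodes a cytosolic co-chaperone of Hsp70 and Hsp90, and is no subunit of the complex. It had 115, 136, 133 and 135 TPM, a mean of 129.9 ± 9.88 TPM (SD, n = 4), with replicate 1 below the other libraries.

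In the inner membrane, the genes of the TIM23 complex were at moderate levels that lay closer together. Timm50, the receptor that takes over precursors from TOM, was the highest with 210.1, 211, 206 and 197 TPM, a mean of 206 ± 6.52 TPM (SD, n = 4). Timm23, the channel gene (chr14:32180162-32201898, minus strand), had 94.0, 90.7, 85.6 and 77.0 TPM, with replicate 4 lowest. Timm21, which links TIM23 to the outer membrane side and to the respiratory chain, had a mean of 86.5 ± 3.38 TPM (SD, n = 4). The ranges of Timm23 and Timm21 overlapped, and each was the higher of the pair in 2 of the 4 libraries. Timm44, which tethers the matrix Hsp70 motor to the channel, had 122, 114, 115 and 111 TPM, above every library of Timm23. Timm23 is uncertain because near-identical copies exist: Gm10273 matches its transcript at 99.9% identity over 1121 of 1173 bases, and reads that map to both cannot be assigned. Gm10273 itself had 4, 1, 3 and 1 counts.

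Timm17a and Timm17b are paralogues that partner the Timm23 channel and are found in alternative forms of the complex. Timm17a (chr1:135295213-135313778, minus strand) had 52.8, 47.9, 49.3 and 48.6 TPM. Timm17b (chrX:7899357-7908351, plus strand) had 71.8, 74.2, 67.3 and 67.0 TPM. The libraries of the genes did not overlap, and per exonic base Timm17a was lower in 4 of 4 libraries, by -0.49 ± 0.09 in log2(TPM + 1), which made it 41.5 ± 1.53% (SD, n = 4) of the summed TPM of the pair. In counts not divided by length the order turned: Timm17a had 117 ± 5.96 CPM (counts scaled to a fixed library total) and Timm17b 53.4 ± 3.5 CPM (SD, n = 4), a log2 difference of 1.11. The exonic lengths behind this are 7893 bases for Timm17a and 2557 for Timm17b, and the TPM would be equal if the transcripts of Timm17a that these cells make were 5594 bases long. With the longest coding transcript of each gene as the length, Timm17b remained the higher, at 54.1 ± 2.69 against 38.7 ± 1.65 TPM (SD, n = 4). Which transcripts were present cannot be read from gene counts, so the order of these paralogues rests on the length used.

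The TIM22 complex, which inserts carrier proteins into the inner membrane, had the lowest median per exonic base among the complexes, 55.3 ± 1.42 TPM (SD, n = 4). This median is over 2 core genes only, Timm22 and Timm29. Timm10b was grouped with the small TIM genes and Agk with the partners. Timm22, its channel gene, had 52.2, 52.9, 54.5 and 46.3 TPM, a mean of 51.5 ± 3.56 TPM (SD, n = 4). Timm29, a subunit found in animals, had 57.5, 59.8, 58.4 and 60.5 TPM, a mean of 59.0 ± 1.36 TPM (SD, n = 4), above every library of Timm22. Timm23 was between 1.57- and 1.80-fold higher per exonic base than Timm22, its relative in the other translocase, in 4 of 4 libraries, while in CPM the mean difference turned to -0.08 in log2.

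The small TIM genes, whose products carry hydrophobic precursors across the intermembrane space, included both high and nearly silent members. Timm9 and Timm10 form 1 chaperone complex together, and their levels were 155, 134, 148 and 152 TPM for Timm9 and 195, 196, 200.4 and 188 TPM for Timm10. Timm9 was the lower in 4 of 4 libraries, at 0.756 times the level of Timm10 per exonic base, with no overlap. The size of this difference rests on the length used: it was -0.40 in log2(TPM + 1) with the deposited lengths. In CPM it was -0.08, with Timm9 lower in 3 of 4 libraries. With the longest coding transcripts it was -1.95 (42.1 against 165 TPM). For Timm9 that transcript has 2564 bases, while reads were counted over 1018, so this last value does not measure the difference. Timm13 pairs with the Timm8 proteins in a second chaperone complex and had 299.7, 327, 300 and 298 TPM. Its partner Timm8b had 271, 274, 259 and 206 TPM, with replicate 4 well below the others. Timm8b was the lower of this pair in 4 of 4 libraries, between 0.692 and 0.904 times Timm13. Timm8a1, the mouse counterpart of the human deafness-dystonia gene, had 27.1, 32.3, 27.0 and 22.2 TPM, which is 0.107 times Timm8b and 0.0884 times Timm13. The paralogues of Timm8 were thus far apart, with Timm8b supplying most of the Timm8 messenger RNA per length. Timm10b, which sits on the TIM22 complex, was low at 10.8 ± 0.41 TPM (SD, n = 4), and 10.5% of its exonic bases are shared with Gm45799.

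Timm8a2, a paralogue of Timm8a1, had 2, 1, 0 and 3 counts in replicates 1 to 4. Over the 4 libraries these 6 counts stood against 2446 counts of Timm8a1, a ratio per exonic base of 262 with an exact 95% interval from 120 to 714 that covers counting error only. Timm8a1 has its own near-identical copy, since Gm9797 matches 612 of its 1421 transcript bases at 100% identity and had 29, 21, 11 and 10 counts. The stretches before the start sites of the nearly silent Timm8a2 (chr14:122034524-122034673, plus strand) and of the expressed Timm8b (chr9:50603751-50603900, plus strand) are shown, since both hold the ETS letters, in capitals.
Timm8a2: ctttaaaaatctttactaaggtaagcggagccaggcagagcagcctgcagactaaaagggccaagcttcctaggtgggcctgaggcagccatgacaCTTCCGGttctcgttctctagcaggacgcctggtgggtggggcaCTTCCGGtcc
Timm8b: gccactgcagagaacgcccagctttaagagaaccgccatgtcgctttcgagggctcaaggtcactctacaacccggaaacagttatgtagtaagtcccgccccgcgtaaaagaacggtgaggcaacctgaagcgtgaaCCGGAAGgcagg
Timm8a2 holds 2 matches and Timm8b holds 1. This pair was chosen for holding the letters, so the comparison is no test of them. The window of Timm8a1 holds the E-box and no ETS match. Any link between the letters and expression was not tested.

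Across 10 pairs of paralogues and partners, the direction per exonic base was the same in 4 of 4 libraries for every pair. The exact two-sided sign-flip permutation test over 4 libraries gave p = 0.125 for each, which is the smallest value that 4 libraries allow, and 0.125 after Benjamini-Hochberg adjustment over the 10 pairs. None could therefore reach 0.05, whatever its size. The order of size ran from Tomm20 over Tomm20l (6.11 ± 0.07 in log2(TPM + 1)) to Timm8b against Timm13 (-0.29 ± 0.17). The first of these values is set by the pseudocount of 1, since Tomm20l is at 0. Among pairs of detected genes, the ratio of several moved by over 1.5 times and kept its direction. In CPM the log2 difference was -1.68 for Timm8a1 against Timm8b and -1.67 for Timm8b against Timm13. With longest coding transcripts it was -1.63 for Tomm20 against Tomm70a, 4.12 for Tomm40 against Tomm40l and -1.95 for Timm9 against Timm10. For Tomm70a and Timm9 that transcript is longer than the exons counted, so the values of their pairs rest on bases that were not counted.

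**Figure D2:**
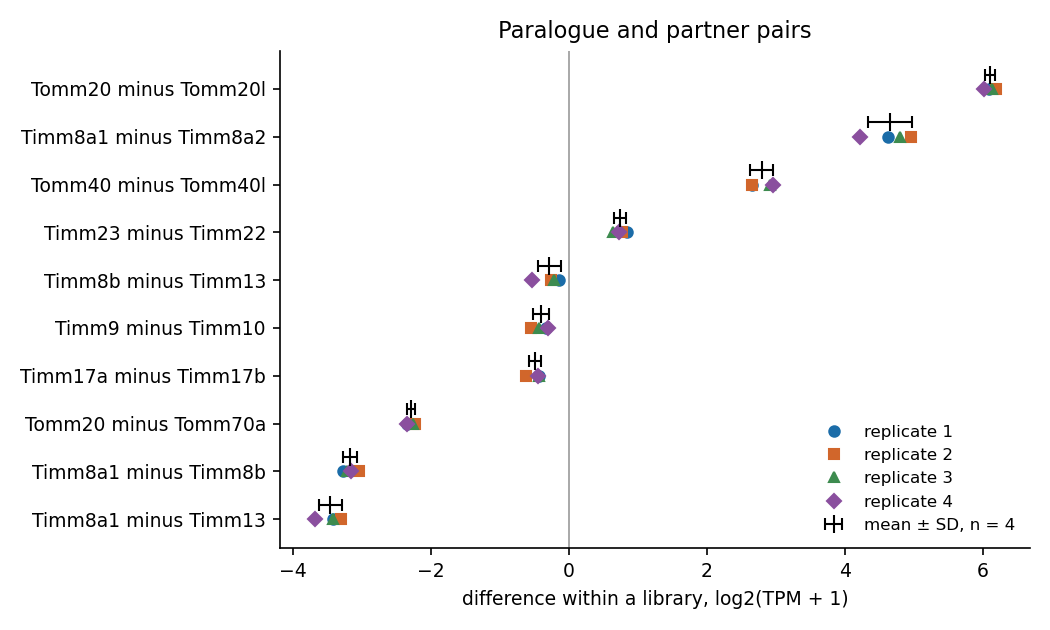
Difference between the first and the second gene of 10 pairs in log2(TPM + 1) on the horizontal axis, one symbol per library, with the mean and SD (n = 4) drawn above the symbols. All symbols of a pair lie on the same side of 0; in CPM, without division by length, Timm17a against Timm17b (1.11) and Timm23 against Timm22 (-0.08) turn, and Timm9 is lower than Timm10 in 3 of 4 libraries.

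The outer membrane complex as a group was higher than the inner membrane complexes when medians of core subunits were compared. The 7 core TOM genes had medians of 259, 276, 278 and 287 TPM in replicates 1 to 4, and the median gene was Tomm40 in every library. For the inner membrane, the rule on symbols left Timm44 as the only motor gene. The 7 motor and TIM23 partners with other names, at a median of 109 TPM, were left out. The 8 core genes of TIM23, its motor and TIM22 had medians of 81.4, 79.8, 76.5 and 72.0 TPM. The difference within libraries was 1.67, 1.78, 1.86 and 1.98 in log2(TPM + 1), a mean of 1.82 ± 0.13 (SD, n = 4). The difference is no property of every subunit: Tomm20 and, as counted, Tomm6 lay below the inner membrane medians, and Timm50 lay above Tomm7 in every library. With means over the same genes in place of medians the difference was 0.70, and it was 2.09 without Tomm6, Timm23 and Timm8a1, the genes with the largest shared or copied stretches. The 6 core small TIM genes had medians of 175, 165, 174 and 169.8 TPM and lay above the inner membrane group by 1.13 ± 0.09 (SD, n = 4) in log2(TPM + 1), a direction that turned to -0.39 in CPM. Members of the inner membrane group spanned 4.15-fold from Timm17a to Timm50, those of the small TIM group 28.3-fold from Timm10b to Timm13, and those of TOM 118-fold from Tomm6 to Tomm22. The last range rests on Tomm6, whose level is limited by its counting.

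The length assigned to a gene moved some levels more than the libraries did. With the longest coding transcript of GENCODE M21 in place of the exonic length in the files, Tomm40 went from 275 to 542 ± 24.2 TPM (SD, n = 4). Its longest coding transcript has 1646 bases and its exons together 4513. The scale of TPM shifted too, since the lengths of all genes enter it. Genes whose own length stayed the same, such as Timm29 and Tomm7, went to 0.719 times their level. Tomm22 went to 207, Tomm70a to 154, Timm9 to 42.1 and Timm21 to 33.8 TPM, each by more than 1.5-fold downward. The shift of scale is part of this. For these genes the M21 transcript is longer than the exons counted, with 1569 against 1113 bases for Tomm22. Their counts were thus divided by bases over which no read was counted, so these lower values are no measure of their levels. With the longest coding transcripts Tomm40 was the highest member, and Tomm5 (290.5 TPM) and Timm50 (262 TPM) came next. Tomm22 as the highest gene is therefore a statement about the deposited lengths.

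**Figure D3:**
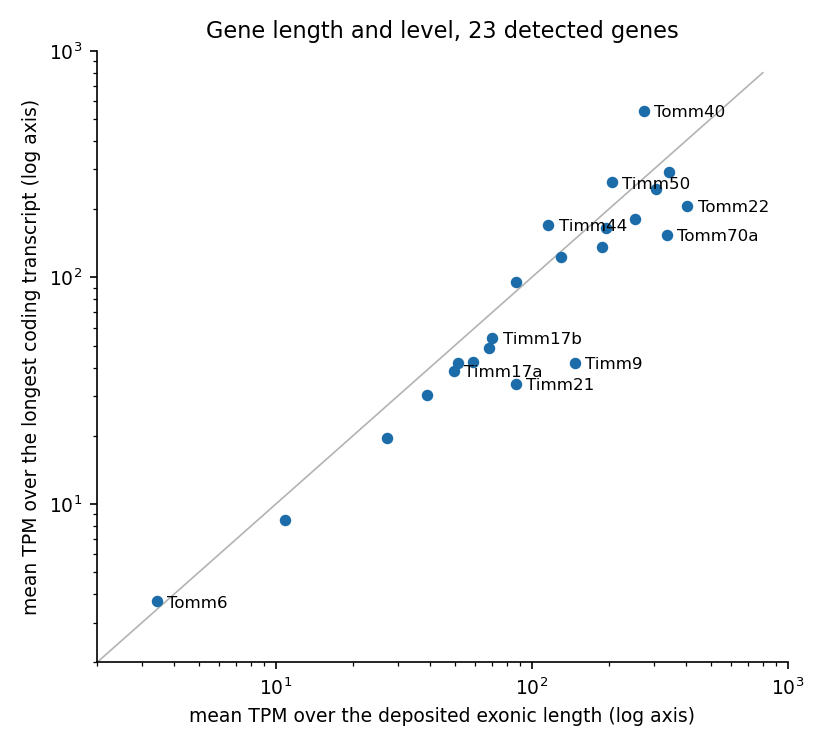
Mean TPM of the 23 detected genes over the deposited exonic length (horizontal, log axis) and over the longest coding transcript (vertical, log axis), with a line at equality. Tomm40 lies above the line at 542 TPM, and Timm9, Timm21, Tomm70a and Tomm22 lie farthest below it. The transcripts of these last genes are longer than the exons counted. Genes of unchanged length, such as Timm29, lie at 0.719 times their level, also below the line.

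In SD of log2 CPM, not matched for level, the TOM and TIM genes spread between replicates by about as much as other genes at the median. Each gene's residual spread was set against the trend over genes of like abundance in edgeR's quasi-likelihood fit, with Benjamini-Hochberg adjustment over all 12285 genes tested. None of the 23 members tested passed an adjusted p of 0.05, beside 28 genes (0.228%) over the whole table, and the lowest adjusted p was 0.672, for Timm8b. Without adjustment 3 of the 23 lay under 0.05, against 5.42% of all genes tested. These were Timm8b, Tomm5 and Tomm40l, and the edgeR p adjusted over all genes was 0.857 for Tomm5 and 0.918 for Tomm40l. DESeq2 called 0 of the members as dispersion outliers. The median SD of log2 CPM was 0.0857 over the members and 0.0851 over 9837 detected nuclear protein-coding genes, and 11 of the 23 members lay below the latter. These SDs do not compare genes of like abundance, since the median level was 116 TPM for detected members and 32.7 TPM for detected nuclear protein-coding genes. Against the edgeR trend at like abundance, most members lay above it, with ratios from 0.128 for Timm29 to 5.59 for Timm8b. The share of all genes tested that lay above the trend was not computed, so this may hold for genes in general. The members as a set were not tested against the trend. Timm29 was the steadiest with an SD of 0.0288, and Timm8a1 (0.243), Tomm6 (0.237) and Timm8b (0.215) spread the most.

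**Figure D4:**
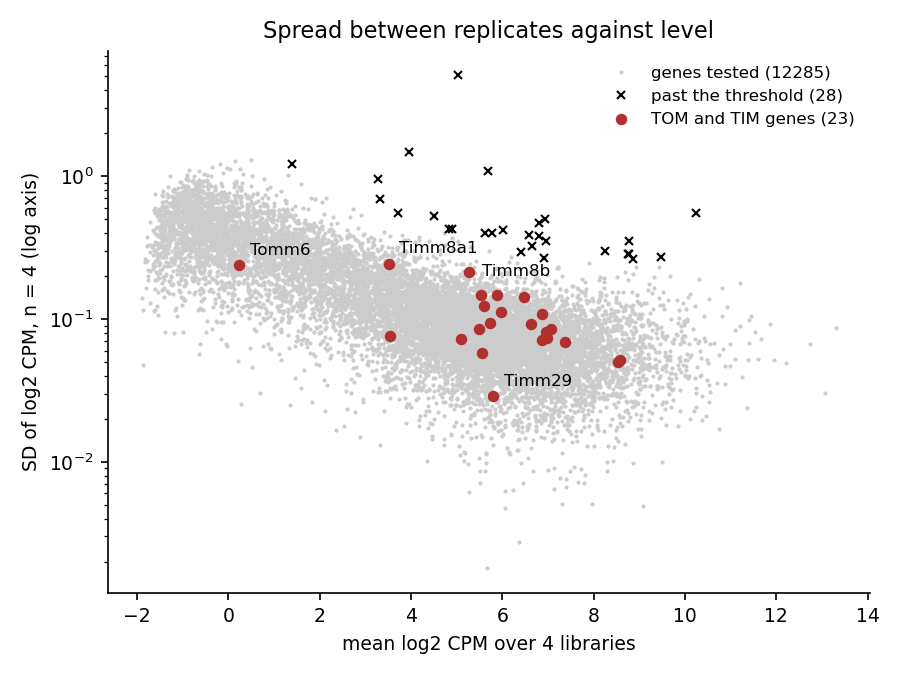
SD of log2 CPM over the 4 libraries (vertical, log axis) against mean log2 CPM for all genes tested, with the 28 genes past the adjusted threshold as crosses and the 23 TOM and TIM genes as filled circles. The TOM and TIM genes lie within the cloud of other genes, with Timm8b and Timm8a1 near its upper edge and Timm29 (0.0288) low in it.

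Although no single gene passed that test, the members leaned the same way in replicate 4. In log2 CPM, 18 of the 23 were lowest in replicate 4, against 31% of detected nuclear protein-coding genes. Their median deviation from their own mean was -0.10 there and 0.03, 0.06 and 0.01 in replicates 1 to 3, while the medians over all detected nuclear protein-coding genes lay within 0.003 of 0. In replicate 2, 12 of the 23 were highest, against 23.3%. By complex, replicate 4 was lowest for 5 of 5 TIM23 genes, for Timm44, for 3 of 3 receptors, 2 of 3 small TOM genes, 1 of 2 channel genes, 1 of 2 TIM22 genes and 5 of 6 small TIM genes. The 5 exceptions were Tomm40, Tomm6, Tomm34, Timm9 and Timm29. Timm8b and Timm8a1 had the largest downward deviations, at -0.32 and -0.31 in replicate 4, and Tomm6 the largest upward one, at 0.32.

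Gene length moved with this lean. Among detected nuclear protein-coding genes of under 2000 exonic bases, 50.7% were lowest in replicate 4, against 17.9% of those over 5000 bases. The median exonic length was 2557 bases over the 23 members tested and 4208 over detected nuclear protein-coding genes. Of the members, 9 of 11 below 2000 bases and 9 of the other 12 were lowest in replicate 4. For the longer members no share over all genes of that length was computed. Over detected nuclear protein-coding genes of all lengths it was 31%, or 3048 of 9837. These include the shorter ones, where it was 714 of 1409. Replicate 4 also had the fewest counts, 46192242, beside 53619400, 48931322 and 63313389 in replicates 1 to 3. In bulk RNA, fewer cells of a type and less RNA per cell cannot be told apart. The part of length or depth in the lean was not tested.

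**Figure D5:**
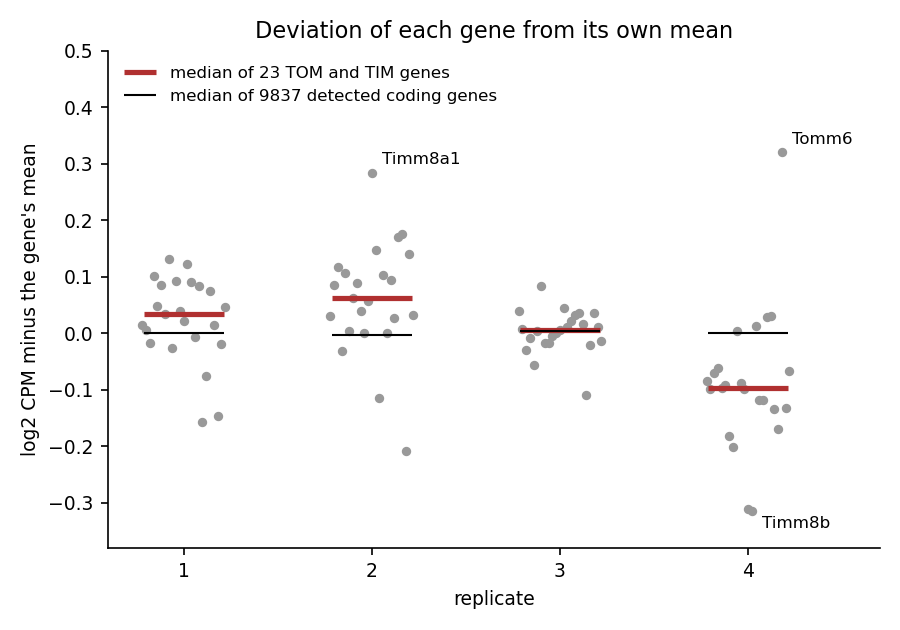
Deviation of each of the 23 tested TOM and TIM genes from its own mean in log2 CPM (vertical) in each replicate (horizontal); points are genes, the thick bar their median and the thin bar the median of 9837 detected coding genes. In replicate 4 most points lie below 0, with a median of -0.10, and Tomm6 lies alone at 0.32.

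The other genes of the import pathway, a list of 27 partners chosen by function, were all detected, a floor that 45.2% of nuclear protein-coding genes reached. None passed the edgeR spread test after Benjamini-Hochberg adjustment. Without adjustment 1 of them, Romo1, lay under 0.05, and its value adjusted over all genes was 0.845. Their median was 61.0 TPM, and 8 of 27 reached 100 TPM, against 9.07% of nuclear protein-coding genes. Of the 27, 20 were lowest in replicate 4, against 31% of detected nuclear protein-coding genes, with a median deviation of -0.06 there. These were 8 of 8 partners below 2000 exonic bases, where the share over all such genes was 50.7%, and 12 of the other 19. For the longer partners no share over all genes of that length was computed. Around the TIM23 motor the range was wide: Hspa9, the matrix Hsp70 that drives it, had 1041 ± 15.98 TPM and Romo1, a small inner membrane protein, 199 ± 23.2 TPM, while the nucleotide exchange factor Grpel2 had 29.0 ± 0.93 TPM and the J-protein Dnajc19 23.1 ± 1.20 TPM (SD, n = 4). Hspa9 was thus far above Timm44 (116 TPM), which tethers it to the channel.

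Downstream of the channels, the matrix chaperonin genes Hspd1 and Hspe1 were, with Hspa9, the highest genes of the pathway, at 1865 ± 24.1 and 715 ± 24.5 TPM (SD, n = 4). Among the 6 peptidases that trim presequences or remove sorting signals, Pmpca (166 ± 2.72 TPM) and Pmpcb (61.1 ± 2.02 TPM), the subunits of the main processing peptidase, were the highest, and Xpnpep3 (13.9 TPM) and Immp2l (6.61 ± 1.80 TPM) the lowest. The disulfide relay that folds the small TIM proteins gave 90.3 TPM for Gfer, 74.7 TPM for Aifm1 and 59.0 TPM for Chchd4. Per exonic base all lay below Timm9, Timm10, Timm13 and Timm8b. That order rests on the length used: in CPM, Timm9, Timm10 and Timm8b lay below Aifm1 and Chchd4 in every library, while Timm13 lay above them. In the outer membrane Samm50, the core of the machine that inserts beta-barrels such as Tomm40, had 469 ± 5.85 TPM and Mtx1, a metaxin of the same machine, 64.8 TPM. The lowest of that group were Mtch2, an insertase, with 41.7 TPM and Mtx3 with 15.8 TPM. In the inner membrane Oxa1l, the insertase for proteins made in the matrix, had 68.7 TPM and Agk, a subunit of TIM22, 9.32 TPM, below Timm22 and Timm29.

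Windows of 300 bases around the RefSeq start were available for 22 of the 25 members, all but Tomm40l, Tomm7 and Timm21, and were searched on both strands for 4 motifs. The ETS letters CCGGAAG were in 9 of 22 windows (40.9%), beside 21.8% of 7921 windows of detected nuclear protein-coding genes and 12.4% of all 16469. The 9 genes were Tomm22, Tomm70a, Tomm34, Timm23, Timm29, Timm8a2, Timm8b, Timm10 and Timm10b, which range from 405 TPM to hardly any read. The E-box CACGTG was in 5 windows (22.7%, beside 11% and 8.11%), those of Tomm20, Tomm20l, Timm8a1, Timm9 and Timm10. The core of the NRF1 site, GCATGCG, was in the Timm13 window alone (4.55%, beside 7.47% and 4.66%), and that of YY1, GATGGCG, in the Timm50 window alone (4.55%, beside 7.79% and 4.7%). NRF1 and YY1 are known for regulating nuclear genes of mitochondria, and a window without these exact letters says nothing about their binding. A match describes the letters in a window of a chosen size and is no measured site.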

How the data were processed

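The deposited tables, 1 per library, hold raw counts for each gene. Per the file headers, the authors counted pairs with both mates mapped over the exons of GENCODE M13 in featureCounts 1.4.6-p4, reverse-stranded (strand setting 2), from STAR alignments. The headers record no option for reads that map to several places or genes. The build is mm10 per the labels. Symbols came from GENCODE M21, which matched 50376 of 50600 identifiers. TPM was computed from counts and the deposited exonic length over all genes. The members and gene lists were chosen with earlier results of these data known.

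All 4 libraries form 1 group, with 46192242 to 63313389 counts each. Spread was tested in edgeR 4.0.16 (R 4.3.3) with TMM, filterByExpr, an intercept-only robust quasi-likelihood fit, an F distribution (upper tail, 13.9 prior degrees of freedom) and Benjamini-Hochberg adjustment at 0.05. The procedure was tested on simulated data. DESeq2 1.42.0 gave alternatives. Pairs were compared within libraries on log2(TPM + 1) by exact two-sided sign-flip permutation. Core subunits leave out Tomm34, Tomm20l, Tomm40l and Timm8a2. Near-identical copies had at least 97% identity over at least 150 bases in blastn 2.17.0, a minimum chosen after seeing the data. Of the 22 RefSeq windows, 18 match their own transcript over their last 30 bases. Every member was named; of each partner subgroup the highest 2 and lowest 2 were named. Tables and figures were made in Python 3.11.15 (matplotlib 3.10.9, pandas 2.3.3, scipy 1.17.1, numpy 2.4.6). Alternatives tried were other scalings, filters, floors, pseudocounts and lengths, and each replicate left out.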

Additional observations from a re-analysis of the deposited data

Results flagged for a closer look

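Among 50 genes examined, the TOM and TIM genes and their partners with the 4 libraries of each, 4 held a library far from the other 3 by Dixon's test at its 95% level. Chance flags about 1 in 20 such groups. Tomm34 was low in replicate 1, at 115.2 TPM beside 133 to 136 TPM in the others. Timm13 was high in replicate 2, at 327.1 TPM beside 298 to 300 TPM. Dnajc15, a J-protein of the import motor, was low in replicate 4 at 181.9 TPM, beside 204 to 205 TPM. Oxa1l was high in replicate 4 at 74.16 TPM, beside 66.71 to 66.95 TPM, against the lean of most import genes in that library. None of these 4 genes passed the edgeR spread test.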

How the results depend on the processing

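None of the TOM and TIM genes was called by the spread test under any alternative run. Over all genes the 28 calls became 142 without the count filter, 15 without the robust fit and 68 as DESeq2 dispersion outliers, and 14 to 27 with each replicate left out, 14 being without replicate 3. The outer minus inner membrane difference of 1.82 (log2) became 0.70 with means, 1.01 over all members, 0.85 in CPM, 1.65 with longest coding transcripts and 2.09 without Tomm6, Timm23 and Timm8a1. The small TIM minus inner membrane difference of 1.13 became 0.21, 0.93, -0.39 (turned), 0.76 and 1.46 under the same 5 settings. The last 2 settings were chosen after seeing the data. With longest coding transcripts, Tomm22, Tomm70a, Timm21 and Timm9 were divided by more bases than were counted. In CPM, Timm17a minus Timm17b turned to 1.11 and Timm23 minus Timm22 to -0.078. Under the alternatives 106 values kept their direction and side of the threshold, or stayed within the spread or count limit, 13 moved and 3 turned. CPM differs from TPM only by the division by length. For the other settings the cause was not tested. With 3 libraries left, the sign-flip test cannot go below 0.25. No paired analysis was possible because there is a single group. Among the TOM and TIM genes, depth limits Tomm20l and Timm8a2. Tomm6 is limited by the bases it shares with Gm21981, besides its low counts.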
